A study of Homo sapiens with 16 samples.

Results

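The 9 mRNAs described here encode the 6 subunits of the replicative helicase (MCM2, MCM3, MCM4, MCM5, MCM6 and MCM7) and 3 enzymes of deoxynucleotide supply (RRM1, RRM2 and TYMS), out of 19077 genes in the deposited count table. They were selected by symbol and on their CPM (counts scaled to the size of the library) across all 16 libraries, by miRNA, so that their differences between miRNAs are given as a description. The fit over all genes also gave each a call, from which nothing is read. All 9 were in the table and passed the filter on low counts in each of 8 comparisons. The libraries hold RNA pulled down with RISC, the RNA-induced silencing complex, from HEK 293 cells, a transformed human embryonic kidney line. RISC-trap uses a dominant-negative form of GW182, a protein partner of the Argonaute proteins, which stabilises bound target mRNAs on RISC for the pulldown. There were 3 libraries titled mir124-3p Illumina, 1 titled mir124-3p Solid, and 2 each for mir550-3p, mir3613-5p, mir1301-3p, mir1271-5p, mir1260a-5p and mir1180-3p. All share the cell line and the pulldown. The labels name no pulldown without a miRNA and do not say how the miRNAs were delivered, nor which sequencer read the 12 libraries of the 6 miRNAs.

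MCM2 to MCM7 form a ring that is loaded around DNA at replication origins in G1 and, once activated, unwinds the DNA ahead of the replication fork. Ribonucleotide reductase, made of the large subunit RRM1 and the small subunit RRM2, turns ribonucleotides into deoxynucleotides, and thymidylate synthase (TYMS) makes the thymidine nucleotide from dUMP. Transcription of most of these genes is raised at the entry into S phase by E2F factors, and RRM2 protein is limited to cycling cells.

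The mature miRNAs that matched the labels in RefSeq (GRCh38.p14) are shown because each comparison sets one guide strand against the others. The seed, bases 2 to 8, is in capitals. The 6 listed miRNAs have 6 different seeds. The label mir1260a-5p was matched to hsa-miR-1260a and mir550-3p to hsa-miR-550a-3p, which is encoded at a pair of loci on chromosome 7, of which the first is given. The miRNA mir124-3p is named only.
hsa-miR-1180-3p (chr17:19344513-19344534, - strand): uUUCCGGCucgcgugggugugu
hsa-miR-1260a (chr14:77266231-77266248, + strand): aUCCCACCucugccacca
hsa-miR-1271-5p (chr5:176367960-176367981, + strand): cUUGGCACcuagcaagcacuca
hsa-miR-1301-3p (chr2:25328651-25328674, - strand): uUGCAGCUgccugggagugacuuc
hsa-miR-3613-5p (chr13:49996465-49996486, - strand): uGUUGUACuuuuuuuuuuguuc
hsa-miR-550a-3p (chr7:29680748-29680769, - strand): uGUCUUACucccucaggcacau

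The promoter windows of MCM2 and RRM2, from 250 bases before to 50 after the start in RefSeq (GRCh38.p14), are shown because the levels of these mRNAs lay apart in different pulldowns. Capitals mark an E2F-type motif in MCM2 (TTTCCCGC, TTTGGCGC, TTTCGCGC or TTTGCCGC on either strand) and the CCAAT motif in RRM2.
MCM2 (chr3:127598161-127598460, + strand): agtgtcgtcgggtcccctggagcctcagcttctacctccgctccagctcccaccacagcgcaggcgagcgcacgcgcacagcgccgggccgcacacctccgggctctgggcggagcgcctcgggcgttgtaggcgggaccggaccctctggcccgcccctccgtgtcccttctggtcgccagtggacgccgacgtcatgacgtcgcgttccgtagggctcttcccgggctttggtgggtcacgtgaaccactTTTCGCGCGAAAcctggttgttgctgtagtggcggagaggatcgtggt
RRM2 (chr2:10122489-10122788, + strand): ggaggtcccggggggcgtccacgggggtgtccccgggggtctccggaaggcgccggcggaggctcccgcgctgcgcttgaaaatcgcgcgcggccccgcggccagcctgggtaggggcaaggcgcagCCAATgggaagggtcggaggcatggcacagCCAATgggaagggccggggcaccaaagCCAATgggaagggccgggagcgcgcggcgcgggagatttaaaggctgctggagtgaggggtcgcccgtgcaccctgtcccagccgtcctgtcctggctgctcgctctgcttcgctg

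An E2F-type motif was in 3.31% of 35116 promoter windows of the same length, and CCAAT on either strand in 34.61%. The MCM2 window held 2 overlapping E2F-type matches, which read the same on both strands, and 0 CCAAT matches. MCM3 held 2 E2F-type matches, MCM6 held 4, TYMS held 1, and the first of 3 MCM7 windows held 2. RRM1 held 0, and so did both RRM2 windows. CCAAT matches numbered 3 in the RRM2 window shown, 1 in its other window, and 3 each in MCM3 and the first MCM7 window. MCM6 held 2 CCAAT matches, RRM1 held 1 and TYMS held 0, so CCAAT was not particular to RRM2. MCM4 and MCM5 are named only. These are matches of letters in a window and were not tied to the counts below, which measure mRNA recovered with RISC.

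Total counts lay between 7612758 and 26527365, and a count of 0 allows up to 0.394 CPM in the shallowest and 0.113 CPM in the deepest library, counting error only. Genes typical of HEK 293 (7 of 7, including PAX2 and LHX1) had a mean of at least 1 CPM in every group and summed to between 527.1 and 1101 CPM. Most of that sum was NEFL (313.1 to 710.8 CPM) and NEFM (83.2 to 221.6 CPM). The median over the 16 libraries was 25.1 CPM for LHX1 and 3.07 CPM for PAX2. TNRC6A, the gene of GW182, whose counts do not separate the endogenous mRNA from the construct, had 46740, 13920 and 48450 CPM in the Illumina libraries and 50720 CPM in the Solid library, against 5667 to 16070 CPM in the other 12. Illumina replicate 2 therefore stood apart from Illumina replicates 1 and 3, and results that rest on it are given with and without it. CPM below were normalised over all 16 libraries. The column names of both mir550-3p libraries and of mir1301-3p replicate 2 contain the letters bio, but no label names separate cultures. The p-values therefore measure the spread between libraries, which may be technical.

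The helicase mRNAs were recovered most with mir124-3p. MCM2, the subunit that also binds histones, had 266.2, 158.9 and 271.7 CPM in the Illumina libraries and 274.8 CPM in the Solid library. In the libraries of the other miRNAs it had 30.1 and 22.6 CPM with mir1180-3p, 46.5 and 47.3 with mir1260a-5p, 45.9 and 56.3 with mir1271-5p, 43.0 and 31.9 with mir1301-3p, 55.2 and 63.6 with mir3613-5p, and 42.8 and 42.0 with mir550-3p. All 4 mir124-3p libraries lay above all 12 others, and the lowest of the 4 was 2.499 times the highest of the 12. The order of the group means of MCM2 ran from mir124-3p Solid and Illumina over mir3613-5p, mir1271-5p, mir1260a-5p, mir550-3p and mir1301-3p to mir1180-3p, and in that order mir3613-5p overlapped mir1271-5p, mir1271-5p overlapped mir1260a-5p, and mir550-3p overlapped mir1301-3p.

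MCM7, whose gene also hosts a miRNA cluster in an intron, had 527.4, 279.0 and 590.2 CPM with mir124-3p Illumina and 551.2 CPM with mir124-3p Solid, against 98.6 to 231.8 CPM in the other 12 libraries (median 165.2). MCM7 overlaps AP4M1, a gene on the opposite strand, and the labels do not say whether the counting used strand. MCM3 had 434.5, 218.6, 508.2 and 452.4 CPM in those 4 libraries, against 49.0 to 136.7 CPM in the 12 (median 86.1). MCM5, which with MCM2 forms the gate of the ring, had 247.3, 99.0, 277.1 and 217.4 CPM, against 19.5 to 71.5 CPM (median 47.9). In these 3 genes, as in MCM2, the groups did not overlap, and the lowest of the 4 values was always Illumina replicate 2. MCM4, one of the subunits of the active helicase core, had 260.1, 156.3, 276.7 and 300.3 CPM with mir124-3p, against 60.2 to 232.4 CPM in the 12 (median 100.6). MCM6, its partner in the core, had 373.8, 209.7, 436.3 and 526.8 CPM, against 55.2 to 326.9 CPM (median 119.8). For MCM4 and MCM6 the groups overlapped through Illumina replicate 2 alone on the mir124-3p side, since the other 3 mir124-3p libraries lay above all 12.

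Thus 4 of the 9 mRNAs had all 4 mir124-3p libraries above the 12 others, where 12.6% of 15353 genes with a mean of at least 1 CPM did. Without Illumina replicate 2, a choice made after the data were seen, 6 of the 9 did (all 6 MCM genes), where 17.7% of those genes did. Since the members were chosen on these values, nothing is read from the difference to either share. In pulldowns of whole cultures, more cells in S phase, more of an mRNA per cell and more binding to RISC cannot be told apart. The platform, named in the titles of the mir124-3p libraries only, cannot be told apart from the miRNA either. TNRC6A had 13920 to 50720 CPM in the 4 mir124-3p libraries and 5667 to 16070 CPM in the 12 others, and its part was not tested.

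**Figure D1:**
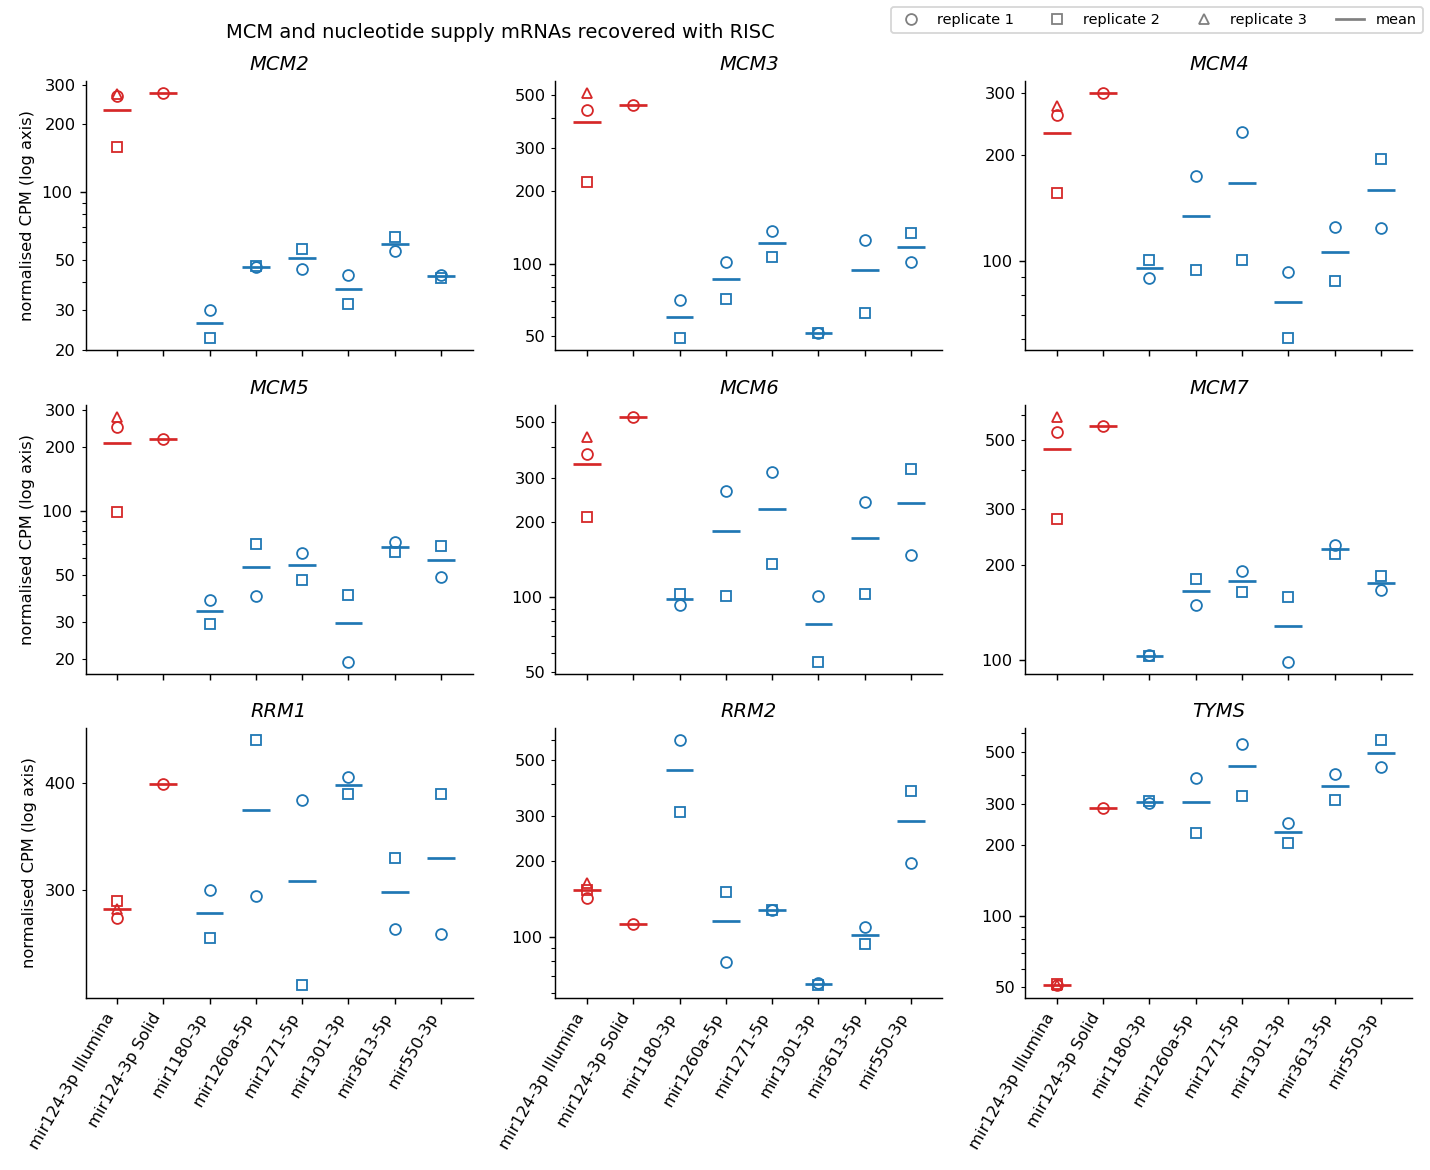
Normalised CPM (log axis) of each of the 9 mRNAs by group; circles, squares and triangles are replicates 1, 2 and 3, and lines are group means. The mir124-3p libraries (red) lie above the other miRNAs (blue) for MCM2, MCM3, MCM5 and MCM7, RRM2 is highest with mir1180-3p, and TYMS is lowest in the mir124-3p Illumina libraries, at 50.9 to 51.5 CPM.

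The enzymes of nucleotide supply did not share this pattern. RRM1 had 278.3, 291.3 and 285.8 CPM in the mir124-3p Illumina libraries and 399.0 CPM in the Solid library, against 232.7 to 448.5 CPM in the 12 libraries of the other miRNAs (median 313.9). All 8 groups of RRM1 overlapped their neighbours in the order of means. RRM2 had 142.7, 153.5 and 163.3 CPM with mir124-3p Illumina and 111.9 CPM with Solid, inside the range of the 12 libraries, 64.3 to 597.3 CPM (median 127.3). TYMS had 50.9, 51.5 and 51.0 CPM in the Illumina libraries and 288.2 CPM in the Solid library, against 205.2 to 558.8 CPM in the 12 (median 318.1).

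Against the mean of the 6 other miRNAs, the log2 fold change in the mir124-3p Solid library was 2.57 ± 0.28 for MCM2, 2.30 ± 0.33 for MCM3, 2.05 ± 0.37 for MCM5, 1.68 ± 0.31 for MCM7, 1.66 ± 0.46 for MCM6 and 1.22 ± 0.40 for MCM4 (SE of the edgeR fit). It was 0.16 for RRM1, -0.37 for TYMS and -0.57 for RRM2. The median was 1.87 for the 6 MCM genes and 1.66 for all 9, beside -0.12 for all 18135 genes tested. Calls needed an edgeR p below 0.05 after Benjamini-Hochberg adjustment across every gene tested. By that rule 5 of the 9 mRNAs were called higher (MCM4 was not), where 7.31% of all genes were, and nothing is read from the count because these values chose the members. The call of MCM6 was lost without mir550-3p replicate 1. MCM4 was called with DESeq2, and with edgeR without mir1260a-5p replicate 1, mir1271-5p replicate 1 or mir1271-5p replicate 2. The mir124-3p Solid group is a single library that was assumed to vary like the others.

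The other genes of the pathway, which the choice of members did not use, were tested in the same fits. Of 87 such genes, 19 were recovered more with mir124-3p Solid than with the 6 miRNAs, 1 was recovered less and 67 were not called. Their median log2 fold change was 0.38, beside -0.12 for all 18135 genes tested. Of all genes tested, 7.31% were called higher and 1.58% lower. The largest share of calls was in purine and pyrimidine synthesis, with 7 of 19 genes higher and a median of 0.84. Origin licensing, the loading of the MCM ring by ORC, CDC6 and CDT1, had 3 of 10 genes higher, helicase activation 3 of 12, the replication fork 3 of 28 and deoxynucleotide supply 3 of 16. Of 23 genes of G2 and mitosis, listed beside the pathway, 3 were called higher (median 0.22). The lists were written with results of these data known.

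IMPDH2, which makes the guanine nucleotide precursor XMP, had 736.6 CPM with mir124-3p Solid, against 167.1 ± 54.3 CPM in the 12 libraries (SD, n = 12; log2 fold change 2.08 ± 0.30, adjusted p = 3.25e-04, edgeR). RFC2, a subunit of the loader of the sliding clamp, had 319.1 CPM, against 62.9 ± 24.2 CPM (2.27 ± 0.33, adjusted p = 3.32e-04). POLA2, the regulatory subunit of DNA polymerase alpha, had 170.3 CPM, against 37.2 ± 11.6 CPM (2.13 ± 0.34, adjusted p = 6.77e-04). The log2 fold changes of these 3 genes lay within the range of the MCM genes, 1.22 to 2.57. They were named because they had the smallest adjusted p of the 87. SHMT1, which charges folate for the TYMS reaction, had a log2 fold change of 1.96 ± 0.36 and rose too (adjusted p = 0.00232). ORC1, the largest ORC subunit, rose by 1.88 ± 0.35 (adjusted p = 0.00243), and UMPS, which makes UMP, by 1.88 ± 0.36 (adjusted p = 0.00332). PRPS2, a synthase of phosphoribosyl pyrophosphate, fell by 1.56 ± 0.44 (adjusted p = 0.0326). It was named because it was the only lower call, where 1.58% of all genes were lower, after its values were seen, and that call was lost without either mir1180-3p library or mir550-3p replicate 2. With upper-quartile scaling, which lowers the median of all genes by 0.18 in this comparison, the split was 15 higher and 4 lower, and with DESeq2 it was 26 higher and 5 lower. Of the 87 genes, 20 had all 4 mir124-3p libraries above the 12 others, and ORC1, RFC2, POLA2 and SHMT1 were among them. Of 15353 genes with a mean of at least 1 CPM, 12.6% did.

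**Figure D2:**
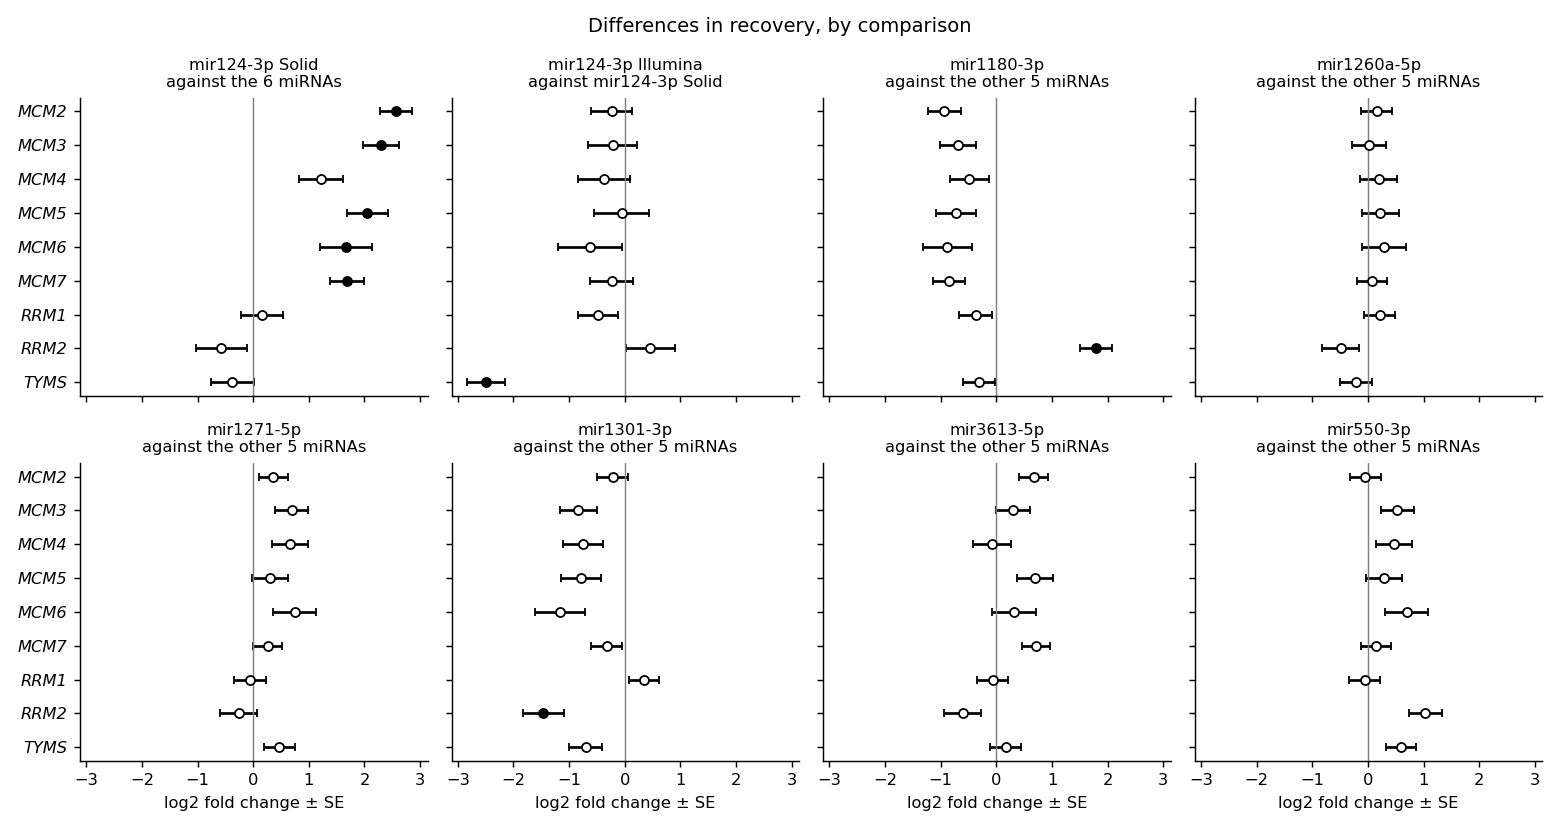
Log2 fold change (± SE) of the 9 mRNAs in each of 8 comparisons, the first-named group over the second; filled points passed adjusted p under 0.05 in edgeR. The 6 MCM genes lie between 1.22 and 2.57 for mir124-3p Solid, RRM2 lies at 1.79 for mir1180-3p and at -1.46 for mir1301-3p, and TYMS at -2.49 between the platforms.

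Between the mir124-3p Illumina libraries and the mir124-3p Solid library, TYMS had the largest difference of the 9 mRNAs. The log2 fold change of TYMS was -2.49 ± 0.34, and it was the single member called lower, where 19.5% of all genes were; nothing is read from the count. Without Illumina replicate 2 it was -2.20. The MCM genes lay between -0.63 and -0.06 and none was called. Their direction is not settled: without Illumina replicate 2, MCM2, MCM3, MCM4, MCM5 and MCM7 lay above 0, with MCM5 at 0.57, and under DESeq2 scaling, which raises the median of all genes by 0.33, 4 of the 6 did. The Illumina libraries detected 15390 to 15772 genes, against 18553 in the Solid library. The 9 fibroblast and mesenchyme markers summed to 2.49 to 4.24 CPM in the Illumina libraries (COL1A2 and FAP at 0 in all 3), against 12.98 CPM in the Solid library, and 5 of the 9 were called lower. The 9 blood markers summed to 2.49 to 3.41 CPM, against 8.28 CPM (4 called lower), and the 8 markers of neurons and glia to 24.6 to 33.8 CPM, against 62.1 CPM (2 called lower). The part of these in the difference of TYMS was not tested. Illumina replicate 2 held 59.1% of the mean of replicates 1 and 3 for MCM2, 46.4% for MCM3, 58.2% for MCM4, 37.8% for MCM5, 51.8% for MCM6 and 49.9% for MCM7. It held 103.3% for RRM1, 100.3% for RRM2 and 100.9% for TYMS. The corresponding figure was 29.3% for TNRC6A. For the median of genes that averaged 5 CPM or more in the mir124-3p libraries it was 96.0%. All 6 MCM mRNAs were thus lower in the Illumina library with less TNRC6A and the 3 nucleotide enzymes were not; the part of TNRC6A in this was not tested.

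TYMS overlaps ENOSF1, a gene on the opposite strand that codes for a mitochondrial enzyme. ENOSF1 had 47.0, 39.3 and 42.7 CPM with mir124-3p Illumina and 306.7 CPM with mir124-3p Solid, against 196.1 to 638.3 CPM in the 12 libraries. The ratio of TYMS to ENOSF1 was 1.08 to 1.31 in the Illumina libraries and 0.940 in the Solid library, against 0.848 to 1.11 in the 12, over which their log2 CPM correlated at 0.99 (Pearson, n = 12, libraries of 6 miRNAs). ENOSF1 fell in the Illumina libraries by 2.83 ± 0.34 on the log2 scale relative to Solid (adjusted p = 7.37e-06, edgeR). The labels do not say whether the counting used strand, so reads of TYMS and ENOSF1 cannot be told apart. The same limit holds for MCM7 and AP4M1.

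**Figure D3:**
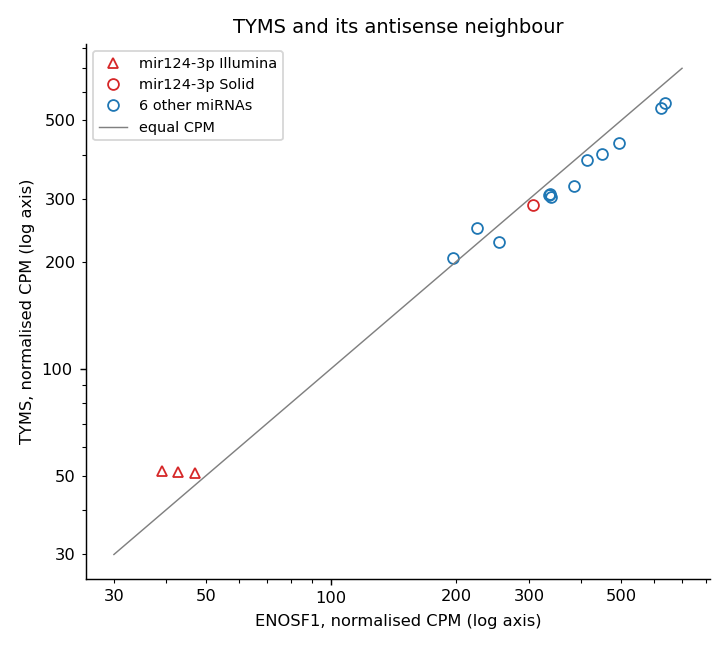
Normalised CPM of TYMS against ENOSF1 (both log axes), 1 point per library, with the line of equal CPM. The 3 mir124-3p Illumina libraries (triangles) lie near 50 CPM for TYMS, and the Solid library and the 12 others lie along the line between 205.2 and 558.8 CPM.

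The mir124-3p Illumina columns also hold more identical counts. Of 12210 genes with at least 20 counts in each Illumina library, 438 (3.59%) shared all 3 counts with another gene. Among 12810 such genes in the Solid and both mir1180-3p libraries, 36 (0.281%) did. None of the 9 members shared its counts. The 2350 genes that overlap only a gene on the opposite strand had a median log2 fold change of -0.39 between Illumina and Solid, beside -0.37 for 11669 genes without an overlap. Of the 87 other pathway genes, 3 rose (3 of 87, where 2.37% of all genes did) and 0 fell (where 19.5% did) in the Illumina libraries relative to Solid. DBF4, the activator of the kinase CDC7, had a mean of 140.7 CPM in the Illumina libraries, against 58.4 CPM in the Solid library (log2 fold change 1.28 ± 0.38, adjusted p = 0.0176, edgeR). The call of NME1 (2.32 ± 0.41, adjusted p = 3.35e-04), is no measure of that gene, since NME1 and NME2, a pair of neighbouring nucleoside diphosphate kinases, had identical counts in each Illumina library.

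Among the 6 miRNAs with 2 libraries each, RRM2 varied most. It had 597.3 and 312.5 CPM with mir1180-3p, 195.3 and 377.3 with mir550-3p, 127.0 and 127.5 with mir1271-5p, 79.1 and 150.8 with mir1260a-5p, 108.9 and 93.5 with mir3613-5p, and 65.6 and 64.3 with mir1301-3p. The highest library was 9.30 times the lowest, compared with 5.93 times for MCM6 and 1.93 times for RRM1, its partner in the reductase. The mir1180-3p and mir550-3p libraries overlapped each other and lay above the other 8, and both mir1301-3p libraries lay below all others. Reads of RRM2 can also match its processed pseudogenes, and the labels do not say how such reads were counted.

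With mir1180-3p the log2 fold change of RRM2 against the other 5 miRNAs was 1.79 ± 0.29. It was the single member called, where 1.92% of all genes were called higher; the members were selected on this contrast too, so nothing is read from it. Without mir1180-3p replicate 1 it was 1.21 and not called. The 6 MCM genes lay below 0, from -0.93 to -0.49 with a median of -0.79, beside -0.08 for all genes, and they stayed below 0 under each scaling tried; DESeq2 called MCM2. TYMS lay at -0.31 and RRM1 at -0.37. Of the 87 pathway genes, NME2 was the single call. It had 3920 and 4018 CPM with mir1180-3p, against 1219 ± 316 CPM in the other 10 libraries (SD, n = 10; log2 fold change 1.60 ± 0.28, adjusted p = 0.00339, edgeR), and it was not called without either mir1180-3p library. NME1 and NME2 share reads with their read-through gene. RRM2B, the p53-inducible small subunit that can replace RRM2, had 38.5 and 67.4 CPM with mir1180-3p, against 25.6 to 105.2 CPM over the 12 libraries, and its log2 fold change of 0.12 ± 0.44 was not called (adjusted p = 0.932).

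With mir550-3p the log2 fold change of RRM2 was 1.03 ± 0.30 and that of TYMS 0.59, with MCM genes between -0.04 and 0.70. None of the 9 was called by edgeR, where 1.51% of all genes were in either direction, and 2 of the 9 had an unadjusted p under 0.05; DESeq2 called RRM2, and so did edgeR without mir1260a-5p replicate 2. Of the 87 pathway genes, 3 rose. MCM9, a relative of the helicase subunits that acts in recombination, had 67.7 and 59.3 CPM with mir550-3p, against 13.9 to 41.3 CPM in the other 10 libraries (log2 fold change 1.35 ± 0.28, adjusted p = 0.0201). ORC3, an ORC subunit, rose by 1.30 ± 0.28 (adjusted p = 0.0251), and RFC4, a clamp loader subunit, by 1.11 ± 0.26 (adjusted p = 0.0425). All 3 calls were lost without either mir550-3p library, and 1 of the 3 (RFC4) also with upper-quartile scaling (adjusted p = 0.0511). The call of ORC3 was also lost without mir1180-3p replicate 1, and that of RFC4 without either mir1180-3p library, either mir1301-3p library, mir1271-5p replicate 2 or mir3613-5p replicate 2. MCM8, the partner of MCM9, had 48.6 and 58.5 CPM with mir550-3p, inside the range of 22.1 to 67.98 CPM over the 12 libraries.

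With mir1301-3p the log2 fold change of RRM2 was -1.46 ± 0.36 against the other 5 miRNAs, the single member called, where 4.39% of all genes were called lower; nothing is read from the count. It was -1.42 without replicate 1 and -1.52 without replicate 2 of mir1301-3p, and not called in either case. MCM6 lay at -1.17, MCM3 at -0.83, MCM5 at -0.79, MCM4 at -0.75, TYMS at -0.70, MCM7 at -0.32 and MCM2 at -0.21, and RRM1 at 0.34. DESeq2 also called MCM3 (-0.88) and MCM6 (-1.20) lower. Upper-quartile scaling moved the median of all genes by 0.40 in this comparison and put 2 of the 6 MCM genes above 0. With that scaling RRM1 was called higher, at 0.74, beside RRM2 lower. Of the 87 pathway genes, 18 fell, 3 rose and 66 were not called, with a median of -0.60 beside -0.02 for all genes. Of all genes, 11.5% were called higher. With upper-quartile scaling the split of pathway calls was 3 lower and 6 higher, so the split rests on the scaling, while the median was -0.18 beside 0.38 for all genes. Without either mir1301-3p library, 0 and 1 pathway genes were called, and without mir1180-3p replicate 1 or mir550-3p replicate 1, 8 were. Without mir3613-5p replicate 1 or mir550-3p replicate 2 the count was 13, and without mir1271-5p replicate 2 it was 31.

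The calls in the mir1301-3p libraries were spread over the replication fork (8 of 28 lower), purine and pyrimidine synthesis (4 of 19 lower, 2 higher), deoxynucleotide supply (3 of 16 lower, 1 higher) and helicase activation (2 of 12 lower), with 1 of 2 MCM relatives lower and 0 of 10 licensing genes called. RPA2, a subunit of the protein that coats unwound DNA, had 103.1 and 144.2 CPM with mir1301-3p, against 325 ± 59.9 CPM in the other 10 libraries (SD, n = 10; log2 fold change -1.38 ± 0.30, adjusted p = 0.0137, edgeR). DTYMK, the thymidylate kinase that acts after TYMS, had a mean of 49.0 CPM, against 125 ± 37.2 CPM (-1.29 ± 0.29, adjusted p = 0.0147). Both groups stood apart without overlap. IMPDH2 fell by 1.15 ± 0.30 (adjusted p = 0.0239) and GINS3, of the GINS complex of the active helicase, by 1.14 ± 0.30 (adjusted p = 0.0240). IMPDH1 rose by 1.20 ± 0.32 (adjusted p = 0.0236), and so did PRPS2 (0.97 ± 0.26, adjusted p = 0.0253), which was named after its values were seen. Each of these 6 calls was lost without either mir1301-3p library, those of IMPDH2 and GINS3 also with upper-quartile scaling, and that of PRPS2 also without mir550-3p replicate 1. Beside these calls, the 9 fibroblast and mesenchyme markers summed to 59.96 and 159 CPM in the mir1301-3p libraries, against 13.8 to 28.3 CPM in the other 10, and 7 of the 9 were called higher. Of 7 blood markers tested, 2 were called higher (median log2 fold change 1.23). Among 8 markers of neurons and glia, 1 was called higher (median 0.51), where 11.5% of all genes were. The 23 G2 and mitosis genes summed to between 1953 and 2324 CPM with mir1301-3p, against 2605 to 4797 CPM in the other 10. Of these 23 genes, 2 were called lower, where 4.39% of all genes were, and 20 lay below 0 (median -0.55). The mir1301-3p libraries were also shallow, with 7612758 and 8533543 total counts, against 8004955 to 17972321 in the other 10. The part of the markers, of the G2 and mitosis genes or of depth in the lower counts was not tested.

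**Figure D4:**
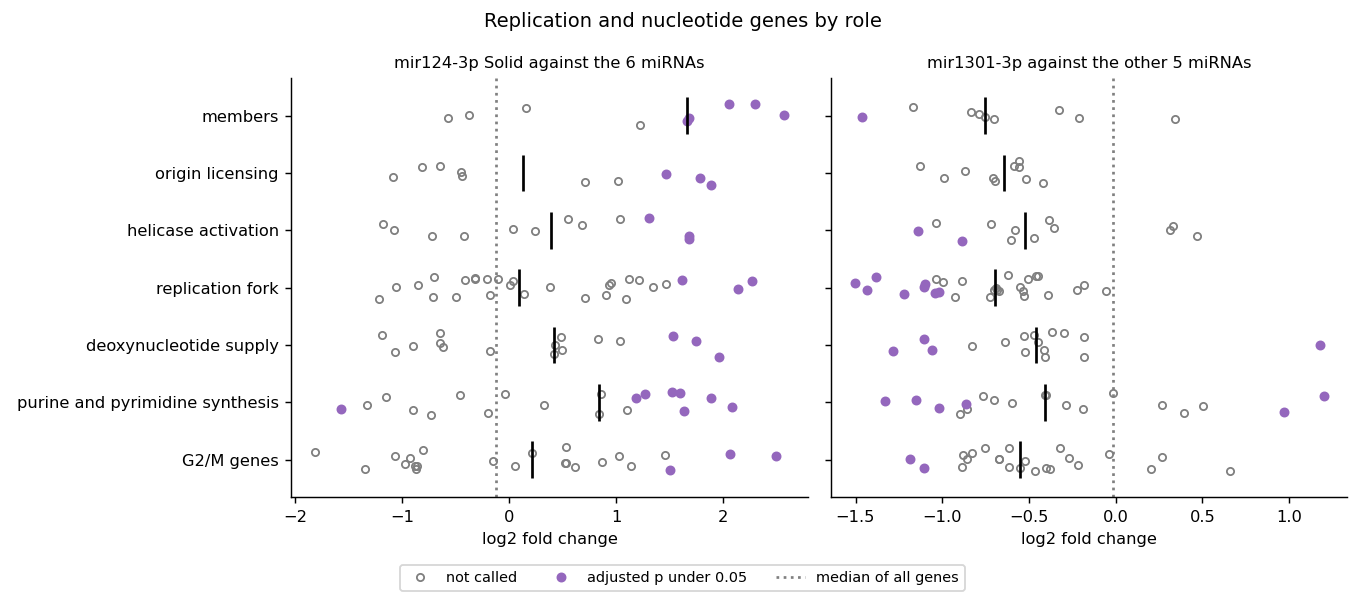
Log2 fold change of each gene by role, for mir124-3p Solid against the 6 miRNAs (left) and mir1301-3p against the other 5 (right); filled points passed adjusted p under 0.05 in edgeR, black bars are list medians and the dotted line is the median of all genes. Calls lie on the higher side for mir124-3p Solid, with PRPS2 as the exception, and mostly on the lower side for mir1301-3p, where the members' median is -0.75.

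The remaining miRNAs gave 0 calls among the 9 mRNAs by edgeR at an adjusted p under 0.05. With mir1271-5p the MCM genes lay between 0.26 and 0.75, where 0.606% of all genes were called in either direction. With mir1260a-5p they lay between 0.01 and 0.29, where 0.215% were called, and with mir3613-5p between -0.08 and 0.71, where 0.0906% were. An unadjusted p under 0.05 was reached by 1 of the 9 mRNAs with mir1271-5p, by 0 with mir1260a-5p and by 3 with mir3613-5p, and DESeq2 also called 0 of the 9 in these 3 comparisons. In the pathway lists RFC3, another clamp loader subunit, rose with mir1271-5p by 1.29 ± 0.26 (adjusted p = 0.0281), with 696.3 and 828.1 CPM against 327 ± 81.6 CPM in the other 10 libraries (SD, n = 10). That call was lost with upper-quartile scaling and without mir1180-3p replicate 2, mir1271-5p replicate 1, mir1271-5p replicate 2, mir3613-5p replicate 2, mir550-3p replicate 1 or mir550-3p replicate 2.

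Among the 6 miRNAs with 2 libraries each, the libraries of a single miRNA differed in the MCM genes, and not in all of them alike. MCM6 had 267.2 and 101.4 CPM with mir1260a-5p, 315.8 and 136.2 with mir1271-5p, 240.7 and 102.8 with mir3613-5p, 147.8 and 326.9 with mir550-3p, 101.1 and 55.2 with mir1301-3p, and 92.7 and 103.4 with mir1180-3p. In the first 4 of these the replicates were 2.63, 2.32, 2.34 and 2.21 times apart, where the median gene was 1.42, 1.46, 1.35 and 1.26 times apart. In these 6, MCM2 was at most 1.35 times apart. MCM4 was 2.31 times apart with mir1271-5p, MCM3 2.01 times with mir3613-5p and MCM5 2.05 times with mir1301-3p. TYMS was at most 1.70 times apart. Replicate 1 was the higher library in 4 of 4 of mir1260a-5p, mir1271-5p, mir1301-3p and mir3613-5p for MCM3, MCM4, MCM6 and TYMS, in 2 of 4 for MCM5, MCM7, RRM1 and RRM2, and in 1 of 4 for MCM2. With mir550-3p it was the lower library for each of the 9 except MCM2.

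**Figure D5:**
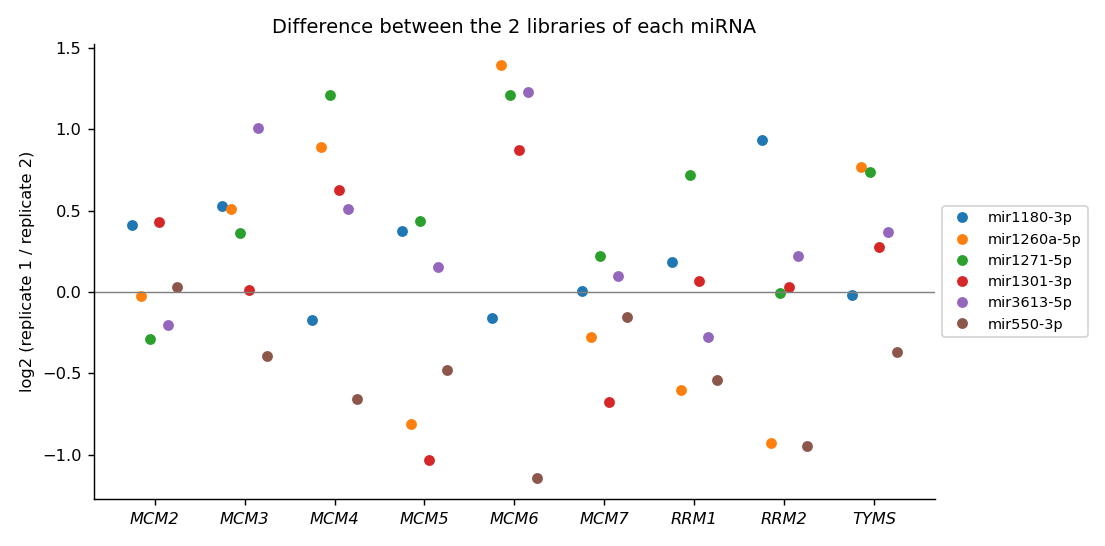
Log2 ratio of replicate 1 over replicate 2 for each of the 9 mRNAs, 1 point per miRNA. MCM2 stays within 0.43 of 0 in either direction, and MCM6 ranges from -1.15 with mir550-3p to 1.40 with mir1260a-5p.

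Across the 12 libraries of the 6 miRNAs the MCM genes did not all vary alike, which is given as a description with no test since libraries of 1 miRNA share their treatment. The log2 CPM of MCM4 and MCM6 correlated at 0.96 (Pearson, n = 12), those of MCM3 and MCM6 at 0.88 and those of MCM5 and MCM7 at 0.90, whereas MCM4 and MCM7 correlated at 0.30. MCM3 lay at 0.64 with MCM5 and 0.60 with MCM7, and MCM2 at 0.72 with MCM7, 0.54 with MCM5 and 0.50 with MCM3. TYMS correlated at 0.91 with MCM6 and 0.90 with MCM4. RRM1 lay between -0.24 and 0.07 with the other 8 members, and RRM2 at -0.49 with MCM2. The same values moved with the depth of the libraries: the correlation with log2 total counts was 0.80 for TYMS, 0.74 for MCM4, 0.71 for MCM3, 0.70 for MCM6 and 0.66 for MCM5, against 0.47 for MCM7, 0.43 for RRM2, 0.14 for MCM2 and 0.09 for RRM1. The part of depth, and of what same-numbered libraries may share, in these correlations was not tested.

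The genes most like the mean log2 CPM of MCM2 to MCM7 over the 12 libraries, among non-members with a mean of at least 5 CPM, were PRPF19 at 0.955, ABCC4 at 0.950, PITRM1 at 0.948, and ARIH1 and USP39 at 0.941 each (Pearson). Those most like RRM2 were MRPS35 at 0.944, SCNM1 at 0.942, UBE2Q1 and LZIC at 0.941 each, and TNFAIP8L2-SCNM1 at 0.940, which shares reads with SCNM1. None of these 10 is in the lists of replication and nucleotide genes.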

How the data were processed

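RNA recovered by RISC-trap was measured in 16 libraries. The authors deposited raw counts per gene; per the submitters' processing notes TopHat2 and the build hg19 were used. The version, the counting tool, its strand setting and the annotation are, in the sources used here, not given. Members and gene lists were chosen with earlier results of these data known. Counts were tested in R 4.3.3 with edgeR 4.0.16 (filterByExpr, trimmed mean of M values, group means, two-sided F tests by robust quasi-likelihood, Benjamini-Hochberg over all genes of a comparison). Each miRNA was compared with the other 5 on average, mir124-3p Solid against the 6, and Illumina against Solid. The comparisons among the 6 miRNAs share a fit, and each miRNA is part of the reference of the other 5. They are therefore not independent: a gene high with a single miRNA lies lower in the comparisons of the rest. Adjusted p-values are from edgeR unless DESeq2 1.42.0 is named. The steps were tested on simulated data. Log2 CPM used a prior count of 2. Pathway genes were named where called, up to 6 per comparison by adjusted p, with the relatives and the 5 most like genes; a gene of the lists is not reported here. Alternatives were DESeq2, upper-quartile scaling, no filter, a replicate block and leaving out each library.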

Additional observations from a re-analysis of the deposited data

How the results depend on the processing

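Among the members and named genes, no call turned into a call in the opposite direction under any alternative run. Values that were not called did change sign, as MCM2, MCM3, MCM4, MCM5 and MCM7 did for Illumina against Solid without Illumina replicate 2. For mir1301-3p the pathway calls went from 18 lower and 3 higher to 3 lower and 6 higher with upper-quartile scaling. The number of all genes called was 266 for mir550-3p, 16 for mir3613-5p, 2815 for mir1301-3p, 107 for mir1271-5p, 38 for mir1260a-5p, 366 for mir1180-3p, 1613 for mir124-3p Solid and 3996 for Illumina against Solid. With DESeq2 it was 686 for mir1180-3p, 64 for mir1260a-5p, 163 for mir1271-5p, 869 for mir550-3p, 148 for mir3613-5p and 2673 for Solid. With upper-quartile scaling it was 50 for mir1271-5p, 4438 for mir1301-3p and 9 for mir3613-5p. The split for mir1301-3p was 2039 higher and 776 lower, with DESeq2 1245 and 1711, and with upper-quartile scaling 4216 and 222. Members called with DESeq2 were 2 for mir1180-3p (1 higher, 1 lower), 3 for mir1301-3p (all lower) and 1 for mir550-3p (higher). With upper-quartile scaling they were 2 for mir1301-3p (RRM1 higher, RRM2 lower). Pathway genes called with DESeq2 were 5 for mir1180-3p, 2 for mir1271-5p, 7 for mir550-3p, 1 for mir3613-5p, 31 for Solid and 5 for Illumina. With upper-quartile scaling they were 3 for mir1180-3p, 0 for mir1271-5p and 9 for mir1301-3p, and with no filter 2 for mir1180-3p and 5 for mir550-3p.

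Leaving out each library in turn, all genes called ranged from 9 to 616 for mir550-3p, 8 to 39 for mir3613-5p, 114 to 4509 for mir1301-3p, 35 to 174 for mir1271-5p, 19 to 50 for mir1260a-5p and 170 to 438 for mir1180-3p. Members called ranged from 0 to 1 for mir1180-3p, 0 to 4 for mir1301-3p and 0 to 1 for mir550-3p. Pathway genes called ranged from 0 to 2 for mir1180-3p, 0 to 2 for mir1271-5p, 0 to 31 for mir1301-3p and 0 to 8 for mir550-3p. For mir124-3p Solid they ranged from 4 to 6 members and 16 to 22 pathway genes. The causes were not tested.

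Replicate numbers were not taken to pair the libraries, since no label pairs them. Deviations of same-numbered libraries correlated between -0.167 and 0.393, over 0.1 in 6 of 15 pairs. Those 6 are all the pairs among mir1260a-5p, mir3613-5p, mir1271-5p and mir1301-3p, at 0.227 to 0.393, a hint from the data and not from the labels. With a replicate block, 6 pathway genes were called for mir550-3p in place of 3. That block spanned all 6 miRNAs, mir1180-3p and mir550-3p included. What sharing among the other miRNAs alone would do to the calls was not tested. Upper-quartile scaling moved the median of all genes by -0.12 for mir550-3p, -0.19 for mir3613-5p, -0.24 for mir1271-5p, 0.16 for mir1180-3p and 0.12 for Illumina against Solid.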
